A study of Mus musculus with 4 samples.

Results

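Hspa1a, Hspa1b, Hsph1, Dnajb1, Hspa8, Hsp90aa1, Hsp90ab1, Hspd1, Hspe1 and Hspa5 encode the main heat shock proteins and chaperones of the mouse cell. They were chosen by name as a family, with earlier results of these data known and no threshold on their values, and are 10 of the 54532 genes counted in the mRNA of lung CD11b+Ly6g+ cells, the gate used for myeloid-derived suppressor cells (MDSCs). The cells came from a model of the pre-metastatic niche (PMN), the changed lung tissue that precedes metastasis. All groups were male C57BL/6 mice aged 6 to 8 weeks that were given 300 μl of MCM, medium conditioned by melanoma cells, into the peritoneum for 10 days, and B16F10 mouse melanoma cells by the tail vein on day 7. The control mice carried the PMN model and received no peptide per the labels. The other 3 groups received TP5, sFD17 or FR17 under the skin at the same dose, 40 μM/kg per day from day 3. TP5 is free thymopentin, an immunomodulatory peptide that does not assemble. FR17 carries TP5 on a self-assembling backbone through a linker that the protease MMP2 cleaves. In sFD17 the TP5 part of that construct is scrambled. Lungs were taken on day 10 and digested with collagenase for 30 min at 37 °C, and the sorted cells of 10 to 12 mice were pooled into 1 library per group. No difference below therefore has a replicate check, and the intervals given cover counting error only.

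Chaperones bind unfolded or newly made proteins and keep them from clumping while they fold. HSP70 proteins work in cycles of ATP use that J-domain proteins start and nucleotide exchange factors end, HSP90 proteins act later on kinases and receptors, HSP60 with HSP10 forms the folding chamber of mitochondria, and BiP is the HSP70 of the endoplasmic reticulum (ER). Under heat and other protein stress, heat shock factor 1 (HSF1) binds repeats of GAA and TTC in the promoters of the inducible members, whereas BiP is driven through ER stress elements in the unfolded protein response. In neutrophils and related myeloid cells these genes are also known to respond to activation and to handling of tissue.

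The promoters of 7 of the 10 genes were in the RefSeq table of mouse assembly GRCm38.p6, which holds 250 bases before to 50 after each start site. Hspa8, Hsp90aa1 and Hsp90ab1 had no entry. The letters searched on both strands were a pair of heat shock repeats, GAA and TTC in either order with 2 bases of any kind between them, and the overlapping extended form of 3 such repeats in alternating order. Of all 32851 promoters in the table, 15.1% held either pair and 0.603% the extended form. The ER stress element was searched as CCAAT and CCACG with 9 bases of any kind between them, which 0.119% of the promoters held. The stretches printed here are those in which the members matched, 5′ to 3′ on the gene's strand, with the matching letters in capitals. The Hspa1a stretch is chr17:34972213-34972300 and the Hspa1b stretch chr17:34959295-34959382, both on the minus strand, with the match at -104 to -97 relative to the start site. The Hspe1 stretch on the plus strand and the Hspd1 stretch on the minus strand are the same bases, chr1:55088053-55088082. It lies between the Hspe1 start site and the downstream of 2 Hspd1 start sites. The window of the upstream Hspd1 start site held no heat shock pair and no ER stress element. The Hsph1 stretches are chr5:149636351-149636380, before its start sites, and chr5:149636280-149636308, after them, both on the minus strand, and the Hspa5 stretch is chr2:34772020-34772048 on the plus strand, with the element at -65 to -47. The stretches of Hspe1, Hspd1, Hsph1 and Hspa5 overlap annotated exons, so at most 30 bases of each are given.
Hspa1a: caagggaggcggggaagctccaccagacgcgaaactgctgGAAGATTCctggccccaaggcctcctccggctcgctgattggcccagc
Hspa1b: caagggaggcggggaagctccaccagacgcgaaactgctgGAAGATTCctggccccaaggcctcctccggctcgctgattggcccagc
Hspe1: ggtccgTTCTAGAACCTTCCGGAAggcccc
Hspd1: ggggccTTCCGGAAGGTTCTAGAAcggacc
Hsph1, before the start: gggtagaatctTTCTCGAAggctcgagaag
Hsph1, after the start: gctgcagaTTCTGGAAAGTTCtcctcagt
Hspa5: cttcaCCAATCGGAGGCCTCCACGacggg

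The Hspa1a and Hspa1b windows were identical at 296 of their 300 bases (98.7%). The run shared by Hspd1 and Hspe1 covers 18 bases and contains the extended heat shock form, and so does the second Hsph1 stretch, at 37 to 49 bases after its upstream start site and 16 to 28 after the other. The Dnajb1 windows held neither motif, which says only that these letters are not there. A match is a description of the sequence, and binding was not measured.

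The libraries held 17132880 (control), 17165184 (TP5), 15543071 (sFD17) and 19638228 (FR17) counts. Levels are given as CPM, counts per 1000000 after TMM scaling, and fold changes as log2 of those values. The 16369 genes that reached 10 counts in any library were kept. The TMM factors ran from 0.849 in sFD17 to 1.17 in FR17, and scaling by library size alone instead shifted the log2 fold changes of all genes against control by a median of 0.05 for TP5, -0.21 for sFD17 and 0.24 for FR17. All log2 values below are with TMM, so that they are relative to the typical gene, and the main signs that turn with library size alone are named. The sorting markers Itgam (CD11b) and Ly6g were counted in each library, Itgam at 5711 to 6924 and Ly6g at 1234 to 2081 counts, and 14 neutrophil markers together took 3.72 to 4.14% of counts. The 14 macrophage markers took 0.630% of the control counts and 0.526%, 0.199% and 0.959% of those of TP5, sFD17 and FR17, with none of them at 0 counts. Markers of other cells were thus counted beside those of the gate, and in bulk RNA fewer cells of a type and less RNA per cell cannot be told apart. The 7 melanoma markers together took 0.00192 to 0.00354% of counts, mostly from Mitf, which myeloid cells also express, with 266 to 660 counts, and Tyr and Tyrp1 were at 0 in all 4 libraries.

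The 10 genes together took 0.444% of the control counts and 0.536%, 0.423% and 0.583% of those of TP5, sFD17 and FR17. All 10 passed the filter. Compared per kilobase of gene length, the constitutive HSP70 Hspa8 had the highest mean level with 354 CPM per kb, next to the BiP gene Hspa5 with 334, and their ranges over the libraries overlapped (328 to 387 and 297 to 348). Hsp90ab1 came next with 257 CPM per kb, below Hspa5 in each library. The inducible HSP70 genes Hspa1b and Hspa1a followed with 156 and 108 CPM per kb, with overlapping ranges. Hsp90aa1 had 59.0, Dnajb1 31.8, Hspe1 24.7, Hspd1 21.6 and Hsph1 5.34 CPM per kb, and among these only the neighbours Dnajb1 and Hspe1, and Hspe1 and Hspd1, overlapped in range. In the plot of levels per kb, Hspa8 and Hspa5 were the most abundant members and Hsph1 the least abundant in every library.

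**Figure D1:**
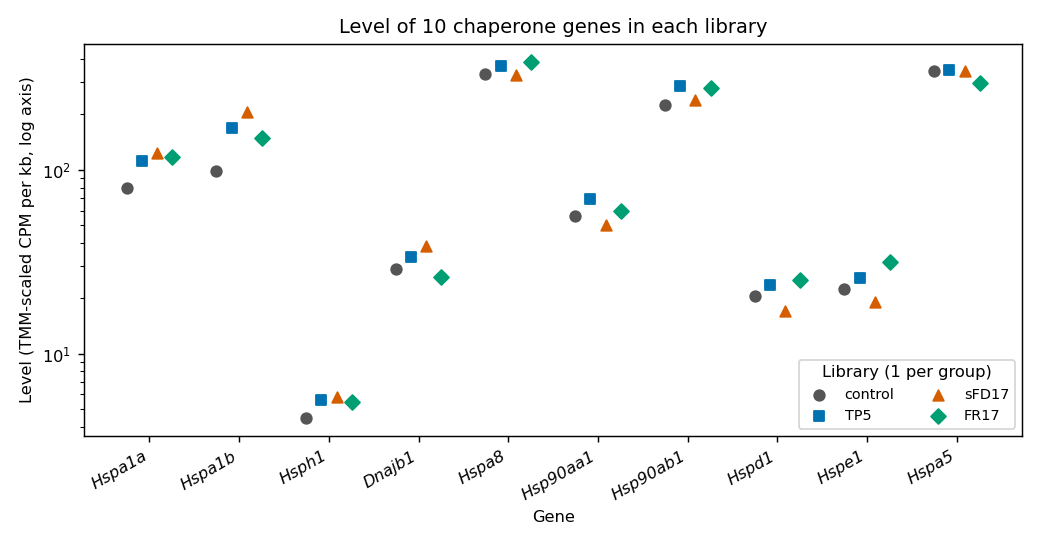
Level of each of the 10 genes in CPM per kb of gene length, on a log axis, with 1 point per library (control, TP5, sFD17 and FR17) and no error bars because each group has 1 library. Hspa8 and Hspa5 lie highest, at 297 to 387 CPM per kb, and Hsph1 lowest, at 4.46 to 5.80.

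The inducible HSP70 genes were the members that differed most from the control. Hspa1a (chr17:34969190-34972156) encodes an HSP70 that is made on stress, and it had 4016, 5836, 4814 and 8035 counts in the control, TP5, sFD17 and FR17 libraries, or 238, 333, 365 and 350 CPM. Hspa1b (chr17:34956436-34959238), its neighbouring copy, had 4660, 8272, 7673 and 9604 counts, or 276, 472, 581 and 418 CPM. Both genes were lowest in the control and highest in sFD17 on this scale, although with library size alone Hspa1a was highest in FR17 (log2 of 0.80 against control, and 0.40 in sFD17). On the log2 scale Hspa1a lay above the control by 0.48 with TP5 (0.43 to 0.54), 0.62 with sFD17 (0.56 to 0.68) and 0.56 with FR17 (0.50 to 0.61). Hspa1b lay above it by 0.77 with TP5 (0.72 to 0.83), 1.08 with sFD17 (1.02 to 1.13) and 0.60 with FR17 (0.55 to 0.65). Hspa1b in sFD17, at 2.11 times the control, was the only difference of any member from the control past 2-fold. In TP5 and FR17 no member reached 2-fold, where 8.18% and 7.5% of all genes tested did, and in sFD17 1 of 10 did, where 11.8% of all genes did and 5.32% were higher by that much. At 1.5-fold, Hspa1b was past the threshold in all 3 libraries and Hspa1a in sFD17, where 20.8% (TP5), 29.0% (sFD17) and 22.7% (FR17) of all genes were. With library size alone Hspa1b in sFD17 was 0.86 (log2), below 2-fold, and with both copies summed it was not past 2-fold either.

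The 2 copies differed in proportion between libraries. Within a library, where no scaling enters, there were 1.16 Hspa1b counts per Hspa1a count in the control (1.11 to 1.21) and 1.20 in FR17 (1.16 to 1.23), but 1.42 in TP5 (1.37 to 1.47) and 1.59 in sFD17 (1.54 to 1.65). The intervals of the control and FR17 overlapped, whereas those of TP5 and sFD17 lay above both and apart from each other. Of the stretches of 100 bases in the annotated transcripts, 47.1% of those of Hspa1a also occur in Hspa1b, and 49.9% of those of Hspa1b occur in Hspa1a. The counting rule for reads that fit both copies is not given in the sources used here, so that how such reads were split is uncertain. Gm20481, which overlaps 564 exon bases of Hspa1a on the opposite strand, had 0 counts in each library.

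Against the constitutive Hspa8, the inducible HSP70s stood higher in each peptide library than in the control. There were 0.360 counts of Hspa1a and Hspa1b together per count of Hspa8 in the control (0.351 to 0.369), 0.462 in FR17 (0.454 to 0.470), 0.508 in TP5 (0.498 to 0.518) and 0.670 in sFD17 (0.655 to 0.686). No intervals overlapped, and this order does not depend on the scaling. Among the log2 fold changes of all genes tested, Hspa1b stood at the 94.4, 95.4 and 89.5 percentile in TP5, sFD17 and FR17, and Hspa1a at the 88.5, 87.5 and 88.4. These percentiles describe the libraries and are not tests.

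The other inducible members differed less. Hsph1 (chr5:149614287-149636376) encodes HSP110, a nucleotide exchange factor of HSP70, and had 548, 715, 556 and 912 counts in the control, TP5, sFD17 and FR17 libraries, or 32.4, 40.8, 42.1 and 39.7 CPM. It was higher than the control in all 3 peptide libraries, by a log2 of 0.33 (0.17 to 0.49), 0.38 (0.20 to 0.55) and 0.29 (0.14 to 0.45). Dnajb1 (chr8:83608193-83612653) encodes the HSP40 that delivers clients to HSP70, and had 1570, 1894, 1620 and 1913 counts, or 92.9, 108, 123 and 83.3 CPM. It was above the control in TP5 (0.22, 0.12 to 0.31) and sFD17 (0.40, 0.30 to 0.50) and below it in FR17 (-0.16, -0.25 to -0.06), although with library size alone FR17 was at 0.09. Per count of Hspa8, Dnajb1 was 0.0501 in FR17 (0.0478 to 0.0525), below the 0.0651 of the control (0.0619 to 0.0686), and 0.0870 in sFD17 (0.0826 to 0.0915). Dnajb1 was thus the inducible member whose position in FR17 differed from that of Hspa1a, Hspa1b and Hsph1, also without scaling.

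**Figure D2:**
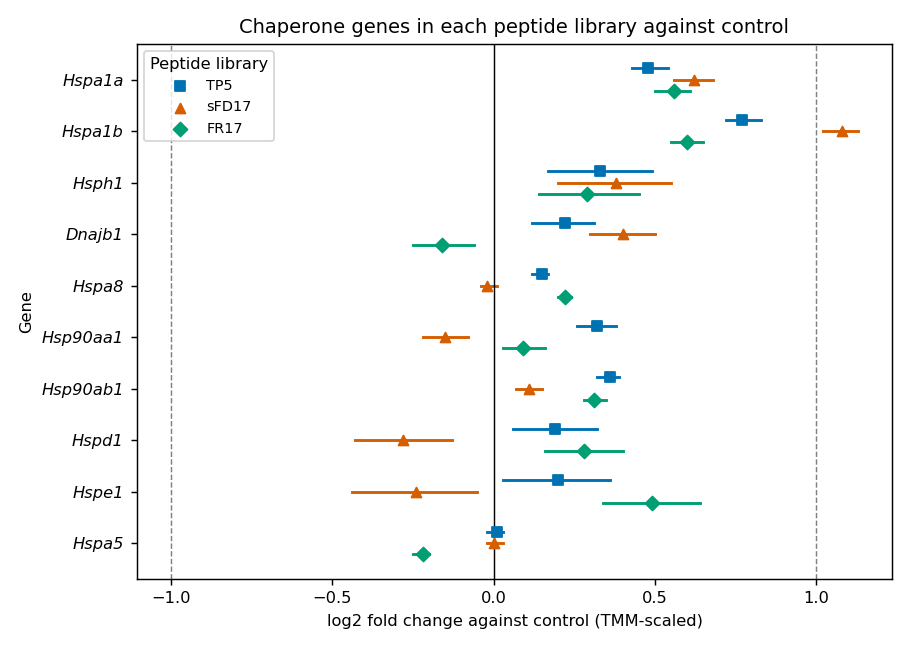
Log2 fold change of each of the 10 genes against control in TP5, sFD17 and FR17 (TMM scaling), with bars for the exact 95% counting interval and dashed lines at 2-fold. Hspa1b in sFD17 (1.08) lies past the line. With library size alone the signs of Hsp90ab1 and Hspa5 in sFD17 and of Dnajb1 and Hspa5 in FR17 turn.

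Hspa8 and the cytosolic HSP90s stayed within 0.36 of the control on the log2 scale with TMM, and within 0.56 with library size alone. Hspa8 (chr9:40800984-40810087), the housekeeping HSP70, had 24103, 27770, 18625 and 38167 counts in the control, TP5, sFD17 and FR17 libraries, or 1430, 1580, 1410 and 1660 CPM. Its log2 fold change was 0.15 in TP5 (0.12 to 0.17) and 0.22 in FR17 (0.20 to 0.24), and in sFD17 it was -0.02 (-0.04 to 0.01), an interval that holds 0, whereas library size alone gave -0.23. Of its 100-base stretches 28.5% also occur in other genes, mainly in Gm15459 and Gm26825, which both had 0 counts in each library. Hsp90ab1 (chr17:45567775-45573271), the constitutive HSP90, had 11326, 15045, 9553 and 19126 counts, or 671, 858, 724 and 833 CPM. It was highest in TP5 (log2 of 0.36, 0.32 to 0.39) and FR17 (0.31, 0.28 to 0.35) and lay at 0.11 in sFD17 (0.07 to 0.15), where library size alone gave -0.11. Hsp90aa1 (chr12:110690605-110702728), the more stress-responsive HSP90, had 3721, 4815, 2617 and 5399 counts, or 220, 274, 198 and 235 CPM. It was above the control in TP5 (0.32, 0.26 to 0.38), close to it in FR17 (0.09, 0.03 to 0.16) and below it in sFD17 (-0.15, -0.22 to -0.08).

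Within a library, there were 0.329 Hsp90aa1 counts per Hsp90ab1 count in the control (0.317 to 0.341) and 0.320 in TP5 (0.310 to 0.331), against 0.274 in sFD17 (0.262 to 0.286) and 0.282 in FR17 (0.274 to 0.291). The inducible isoform of HSP90 therefore did not share the order of the inducible HSP70s, which stood highest against Hspa8 in sFD17. Of the Hsp90aa1 stretches 38.0% occur in other genes, chiefly the pseudogene Gm12346 with 44 to 77 counts, whereas none of those of Hsp90ab1 did.

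**Figure D3:**
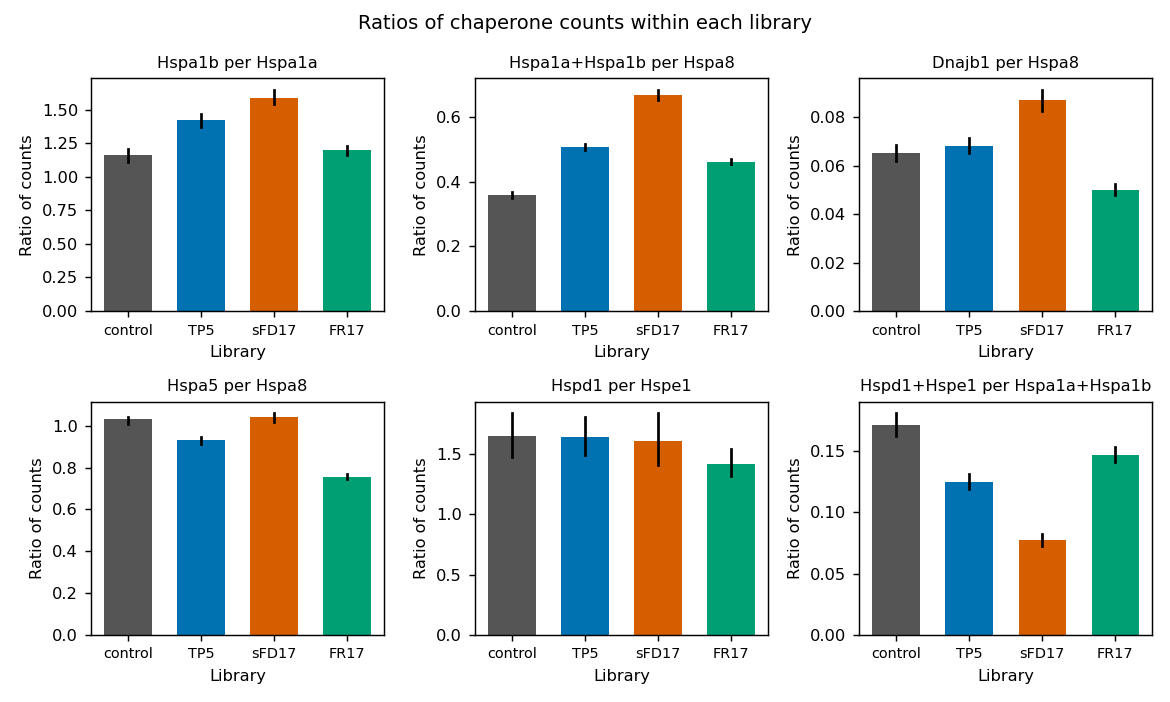
Ratios of counts of pairs of members within each library, which no scaling enters, in 6 panels with 1 bar per library on axes that start at 0 and black lines for the exact 95% counting interval. Hspa1a with Hspa1b per Hspa8 runs from 0.360 in the control to 0.670 in sFD17, while Hspd1 per Hspe1 lies between 1.42 in FR17 and 1.65 in the control.

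The mitochondrial pair followed another order. Hspd1 (chr1:55077835-55088243) encodes HSP60, the wall of the folding chamber, and had 924, 1096, 595 and 1524 counts in the control, TP5, sFD17 and FR17 libraries, or 54.7, 62.5, 45.1 and 66.4 CPM. Hspe1 (chr1:55088132-55091307) encodes HSP10, its lid, and had 560, 667, 370 and 1070 counts, or 33.2, 38.0, 28.0 and 46.6 CPM. Both were lowest in sFD17 and highest in FR17. The log2 differences of Hspd1 from the control were 0.19 for TP5 (0.06 to 0.32), -0.28 for sFD17 (-0.43 to -0.13) and 0.28 for FR17 (0.16 to 0.40). Those of Hspe1 were 0.20 (0.03 to 0.36), -0.24 (-0.44 to -0.05) and 0.49 (0.34 to 0.64). The signs of both genes were the same with library size alone.

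Within a library, there were 1.65, 1.64, 1.61 and 1.42 Hspd1 counts per Hspe1 count in the control, TP5, sFD17 and FR17 libraries. The ratio was lowest in FR17 (1.32 to 1.54), with an interval that overlapped that of the control (1.48 to 1.84). They start from opposite strands of the stretch printed above and share 112 exon bases, and reads there cannot be told apart if the counting ignored strand. The library kit keeps strand. The pseudogene Hspd1-ps3, which holds 22.4% of the Hspd1 stretches, had 92, 92, 46 and 127 counts. Set against the inducible HSP70s, the pair was at 0.171 counts per count of Hspa1a and Hspa1b in the control (0.162 to 0.181), 0.147 in FR17 (0.141 to 0.153), 0.125 in TP5 (0.119 to 0.131) and 0.0773 in sFD17 (0.0723 to 0.0825). The sFD17 library was thus the one in which the mitochondrial and the inducible cytosolic chaperones stood farthest apart.

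Hspa5 (chr2:34771970-34777547) encodes BiP, the ER chaperone that also holds the stress sensors of the ER inactive. It had 24718, 25821, 19356 and 28812 counts in the control, TP5, sFD17 and FR17 libraries, or 1460, 1470, 1470 and 1260 CPM. Its log2 fold change was 0.01 in TP5 (-0.02 to 0.03) and 0.00 in sFD17 (-0.02 to 0.03), and -0.22 in FR17 (-0.25 to -0.20), where library size alone gave 0.02. Per count of Hspa8 it was 1.03 in the control (1.01 to 1.04), 1.04 in sFD17 (1.02 to 1.06), 0.930 in TP5 (0.914 to 0.946) and 0.755 in FR17 (0.743 to 0.767). The FR17 library thus had the least BiP mRNA for its Hspa8 mRNA.

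Over the 10 genes, TP5 had a median log2 difference from the control of 0.27, with 10 higher, sFD17 of 0.06, with 6 higher and 4 lower, and FR17 of 0.29, with 8 higher and 2 lower, where library size alone turned Hsp90ab1 and Hspa5 in sFD17 and Dnajb1 and Hspa5 in FR17, and DESeq2's size factors turned Hspa8 in sFD17. With library size alone the medians were 0.32 (10 higher), -0.16 (4 higher and 6 lower, with Hspa5 at -0.21) and 0.53 (10 higher), where 55.5%, 31.9% and 71.6% of all genes were higher. Taken relative to the median gene, library size gave sFD17 a median of 0.08 with 7 higher and 3 lower. Of all genes tested, 50.1%, 48.0% and 52.3% were higher in the 3 libraries by any amount, 52.0% were lower in sFD17 and 47.7% in FR17, and their medians were 0.00, -0.03 and 0.02. The 3 comparisons share the control library, so that a high or low value there enters all of them.

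**Figure D4:**
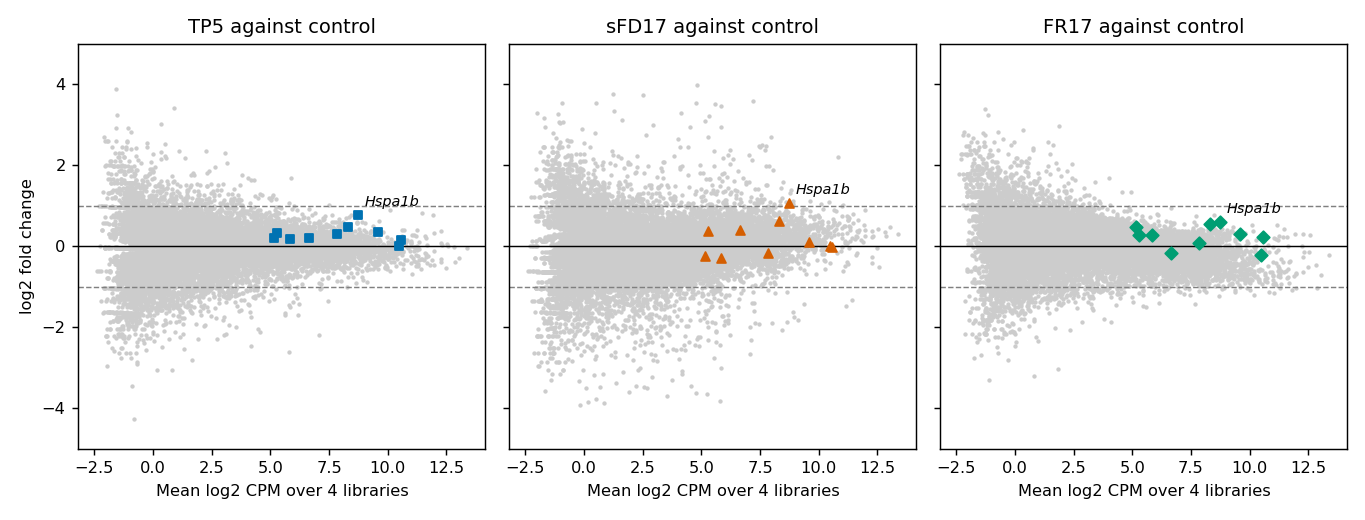
Log2 fold change against control (vertical) and mean log2 CPM over the 4 libraries (horizontal) for all 16369 genes tested (grey) and the 10 chaperone genes (coloured), for TP5, sFD17 and FR17, with dashed lines at 2-fold. The chaperone genes are abundant and lie within 2-fold of the control except for Hspa1b in sFD17, at 1.08.

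At matched dose, FR17 and sFD17 differ in whether the TP5 part is scrambled. No member differed by 2-fold between them, against 22.1% of all genes tested, and Hspe1 alone differed by 1.5-fold, against 46.0%. With library size alone Hspe1 and Hspd1 passed 2-fold. The mitochondrial pair was higher in FR17, Hspe1 by a log2 of 0.73 (0.56 to 0.91) and Hspd1 by 0.56 (0.42 to 0.70), and with library size alone by 1.19 and 1.02. Dnajb1 was lower in FR17, at -0.56 (-0.65 to -0.46), as was Hspa1b at -0.47 (-0.52 to -0.43), which library size alone reduced to -0.10 and -0.01. Hspa8, Hsp90aa1 and Hsp90ab1 were higher in FR17 by 0.24 (0.21 to 0.26), 0.25 (0.18 to 0.31) and 0.20 (0.17 to 0.24). Hsph1 had an interval that holds 0 (-0.08, -0.24 to 0.07), Hspa1a was at -0.06 (-0.11 to -0.01) and Hspa5 at -0.22 (-0.25 to -0.20), and library size alone turned these 3 to 0.38, 0.40 and 0.24. An interval that holds 0 does not show that the peptides act alike.

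TP5 and FR17 differ in whether TP5 is free or carried on the assembling backbone. No member differed by 2-fold, against 9.92% of all genes tested. Hspe1 was higher in FR17 by a log2 of 0.29 (0.15 to 0.44), and Dnajb1 was lower at -0.37 (-0.47 to -0.28), as were Hspa5 at -0.23 (-0.25 to -0.21) and Hsp90aa1 at -0.22 (-0.28 to -0.17), which library size alone reduced to -0.18, -0.04 and -0.03. Hspa1b was at -0.17 (-0.22 to -0.13), with library size alone at 0.02. For Hspd1 (0.09, -0.03 to 0.20) and Hsph1 (-0.04, -0.18 to 0.11) the interval holds 0, with library size alone at 0.28 and 0.16. Hspa1a was at 0.07 (0.02 to 0.12), Hspa8 at 0.07 (0.05 to 0.09) and Hsp90ab1 at -0.04 (-0.07 to -0.01), and with library size alone at 0.27, 0.26 and 0.15, which turned the sign of Hsp90ab1.

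sFD17 and TP5 differ both in the order of the TP5 residues and in the backbone. Against 12.4% of all genes, no member differed by 2-fold. Hspd1, Hsp90aa1 and Hspe1 were lower in sFD17, by log2 values of -0.47 (-0.62 to -0.33), -0.47 (-0.54 to -0.40) and -0.44 (-0.63 to -0.25), and Hsp90ab1 and Hspa8 were at -0.24 (-0.28 to -0.21) and -0.17 (-0.19 to -0.14). Hspa1b was higher at 0.30 (0.26 to 0.35), which library size alone reduced to 0.03. Hspa1a was at 0.13 (0.08 to 0.19) and Dnajb1 at 0.18 (0.09 to 0.28), and library size alone turned these to -0.13 and -0.08. For Hsph1 (0.05, -0.11 to 0.21) and Hspa5 (-0.01, -0.03 to 0.02) the interval holds 0, with library size alone at -0.22 and -0.27. With 3 pairs of peptides and 1 library each, none of these differences could be tested against variation between mice.

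Other genes, in 13 lists that overlap in some members, were set beside the 10 genes. The lists hold genes of the same systems, except for a list of immediate early genes, which is described with the cell markers. HSF1, the factor of the heat shock response, had 648, 825, 773 and 815 counts of its gene Hsf1 in the control, TP5, sFD17 and FR17 libraries, and log2 fold changes of 0.29, 0.61 and -0.11. Like Dnajb1, Hsf1 was highest in sFD17 with TMM, and it was below the control in FR17 with TMM but not with library size alone. Dnajb1 was highest in TP5 with library size alone, at 0.27 against 0.19 in sFD17. Of 16 other heat-inducible HSF1 targets, 7 were higher and 9 lower in TP5, and 8 were higher and 8 lower in both sFD17 and FR17, with medians of -0.08, -0.03 and 0.00. Of all genes, 50.1%, 48.0% and 52.3% were higher. With library size alone 8, 2 and 12 of the 16 were higher, with medians of -0.03, -0.24 and 0.24, where 55.5%, 31.9% and 71.6% of all genes were. Dnaja1, an HSP40 gene among the most abundant of them, had 7388, 8626, 7005 and 7560 counts and log2 fold changes of 0.17, 0.28 and -0.41, the same order of libraries as Dnajb1. Serpinh1, the collagen chaperone HSP47, was below the control by more than 2-fold in TP5 (-1.09), with 344 counts in the control and 167 in TP5. It was at -0.73 in sFD17 and 0.17 in FR17. The 8 fibroblast markers, which include collagens, summed to 0.654 times the control in TP5 and were lower for 8 of 8 genes, and the 8 endothelium markers summed to 0.770 times with 7 of 8 lower. In sFD17 and FR17 the fibroblast sums were 0.469 and 0.780 times the control, and the endothelium sums 1.08 and 1.26 times. The fibroblast sum rested mostly on Fn1, with 17225 of 21479 counts in the control. The part of either cell type in the Serpinh1 values was not tested.

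Of the 21 J-domain proteins, 16, 10 and 14 were higher than the control in TP5, sFD17 and FR17, with medians of 0.17, -0.03 and 0.18, where 50.1%, 48.0% and 52.3% of all genes were higher. With library size alone 17, 4 and 17 were higher, where 55.5%, 31.9% and 71.6% of all genes were. The 14 nucleotide exchange factors and HSP70 partners had medians of 0.12, -0.09 and 0.15, and Bag2 was past 2-fold in all 3 libraries on only 4, 11, 13 and 21 counts. The 14 HSP90 co-chaperones had medians of 0.03, -0.13 and 0.03 with none past 2-fold. Of the other HSP70 and HSP110 genes 9 of 10 passed the filter, with medians of -0.12, -0.19 and 0.00, and Hspa12a had 147, 87, 33 and 307 counts, a log2 of -1.75 in sFD17. Of the other HSP90 genes, Hsp90b1, the HSP90 of the ER, had 3911, 4486, 1783 and 6698 counts and log2 fold changes of 0.14, -0.78 and 0.33, and Trap1, that of mitochondria, had -0.16, -0.32 and 0.34. Both cytosolic HSP90 genes lay nearer to the control in sFD17 than these. Of 10 small heat shock proteins 7 passed the filter, with medians of -0.49, -0.09 and -0.12, and Hspb1, the most abundant, had 113, 84, 93 and 234 counts.

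The chaperonin CCT, which folds actin and tubulin, and its partner prefoldin had medians in the same order of libraries as Hspd1 and Hspe1. Of these 14 genes, 13 were higher than the control in TP5, 13 were lower in sFD17 and 12 were higher in FR17, with medians of 0.17, -0.28 and 0.27. Cct5 had 1514, 1916, 1016 and 2848 counts and log2 fold changes of 0.28, -0.22 and 0.47. The 11 other mitochondrial chaperones and proteases had medians of -0.01, -0.29 and 0.22, with 10 lower in sFD17 and 9 higher in FR17. Between FR17 and sFD17, 11 of 11 of these and 14 of 14 of the CCT and prefoldin genes were higher in FR17, by medians of 0.59 and 0.52, where 53.6% of all genes tested were higher and their median was 0.07. Hspa9, the HSP70 of mitochondria, had 1376, 1319, 713 and 1874 counts and log2 fold changes of -0.12, -0.59 and 0.00.

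**Figure D5:**
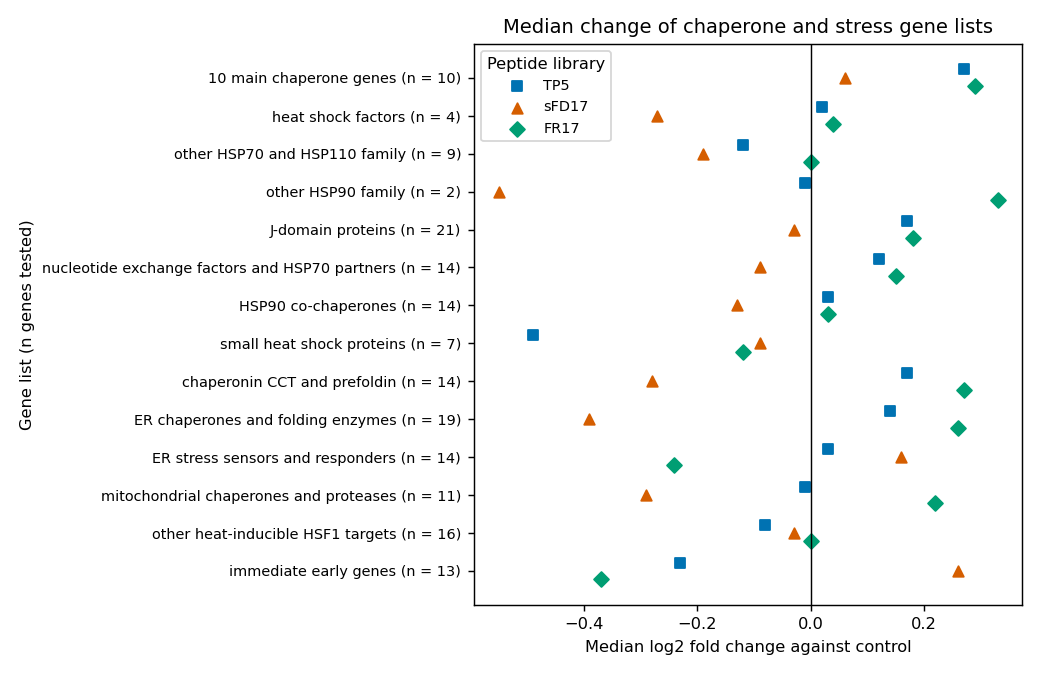
Median log2 fold change against control (TMM) of the 10 chaperone genes and of 13 other lists, of related genes and of immediate early genes, each with the number of genes tested, in TP5, sFD17 and FR17. The chaperonin, ER chaperone and mitochondrial lists lie below 0 in sFD17 (-0.28, -0.39 and -0.29) and above it in FR17 (0.27, 0.26 and 0.22), while the 10 chaperone genes are at 0.06 and 0.29. Library size alone shifts all genes by a median of -0.21 in sFD17 and 0.24 in FR17, and turns the 10 chaperone genes in sFD17 to -0.16.

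Hspa5 did not share the median values of the other ER chaperones. Of 19 ER chaperones and folding enzymes, 18 were higher than the control in TP5, 16 lower in sFD17 and 15 higher in FR17, with medians of 0.14, -0.39 and 0.26, whereas Hspa5 was at 0.01, 0.00 and -0.22. In FR17 4 of the 19 were lower, down to -0.42. P4hb, among the most abundant of them, was close to the control in sFD17 (-0.05) and FR17 (0.04). Calr, a lectin chaperone of the ER, had 7813, 8249, 4952 and 11454 counts and log2 fold changes of 0.02, -0.30 and 0.11. Pdia3, an ER enzyme for the disulfide bonds of client proteins, had 5001, 5514, 2546 and 8142 counts and 0.09, -0.62 and 0.26. Between FR17 and sFD17 the list had a median of 0.77 and 6 of 19 genes past 2-fold, among them Hsp90b1 at 1.11, where 22.1% of all genes were, and Hspa5 was at -0.22, with library size alone at 0.24. The 14 sensors and responders of ER stress stood on the other side with TMM, with 12 higher in sFD17 and 14 lower in FR17 and medians of 0.03, 0.16 and -0.24, and library size relative to the median gene gave 0.17 in sFD17 and -0.26 in FR17. With library size alone 6 were higher in sFD17, where 31.9% of all genes were, and 7 lower in FR17, where 28.4% were. Ppp1r15a, which restarts translation after stress, had 17835, 19602, 21342 and 18794 counts and log2 fold changes of 0.08, 0.61 and -0.37, and Atf4, a transcription factor of the stress response, had 0.37, 0.29 and -0.14. In FR17 Hspa5 was thus lower with these genes and not higher with most of the other ER chaperones, relative to the typical gene, whereas with library size alone it was at 0.02.

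Markers of cell types and genes of handling stress also differed between the libraries. The summed neutrophil markers were 1.07, 1.29 and 0.864 times the control in TP5, sFD17 and FR17, with 13 of 14 higher in sFD17 and 9 of 14 lower in FR17. With TMM this is the order of Dnajb1, Dnaja1 and Hsf1, and the part of neutrophils in those values was not tested. Library size alone left 13 of 14 neutrophil markers higher in sFD17, where 31.9% of all genes were. In FR17 it turned the direction, with 9 of 14 higher and a median of 0.14, where 71.6% of all genes were higher. The summed macrophage markers were 0.806, 0.367 and 1.28 times the control in TP5, sFD17 and FR17, lower for 14 of 14 genes in sFD17 and higher for 12 of 14 in FR17. This is the order of Hspd1, Hspe1, CCT and the ER chaperones in sFD17 and FR17, and the part of macrophages in those values was not tested. The 8 lung epithelium markers, none at 0 counts, had medians of 0.33, 0.18 and 0.22. Their sum was 1.47, 1.99 and 1.19 times the control and rested mostly on the club cell gene Scgb1a1, with 9541, 15350, 16131 and 15455 counts, whereas the alveolar gene Sftpc had 487, 299, 239 and 970. Scgb1a1 was highest in sFD17, as was Hspa1b. B cell markers summed to 1.70, 1.21 and 1.37 times the control, NK cell markers to 2.95 times in FR17 and T cell markers to 1.78 times in FR17. The 13 immediate early genes, which respond within minutes to activation or tissue digestion, had medians of -0.23, 0.26 and -0.37, with 9 lower in TP5, 9 higher in sFD17 and 12 lower in FR17, and with library size alone medians of -0.18, 0.04 and -0.12. Hspa1a, Hspa1b and Hsph1 were above the control in all 3 libraries, also where the immediate early genes were below it. Dnajb1 (0.22, 0.40 and -0.16) and Dnaja1 (0.17, 0.28 and -0.41) had the signs of the immediate early medians in sFD17 and FR17, but not in TP5. With library size alone Dnajb1 in FR17 was at 0.09. Mitochondrial transcripts took 0.455% of the control counts and 0.615%, 0.289% and 0.603% of those of TP5, sFD17 and FR17, lowest in the library in which Hspd1 and Hspe1 were lowest. The part of these quantities in the chaperone values was not tested.

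The genes with values most like the median of Hspa1a, Hspa1b, Hsph1 and Dnajb1 (0.41, 0.51 and 0.42 for TP5, sFD17 and FR17) were sought among 9603 genes outside the lists with at least 50 counts in every library, by Euclidean distance over the 3 log2 fold changes. Phldb1 was nearest at 0.059, followed by Kif22 at 0.067, Med24 at 0.074, Bak1 at 0.090 and Tstd2 at 0.097. Of the 4 chaperone genes themselves the nearest was Hspa1a at 0.19 and the farthest Hspa1b at 0.70. Thus 38 other genes lay nearer to the median than any of the 4, so values like the median were not particular to these genes. The median was not the pattern of each member, since Dnajb1 was at -0.16 in FR17. The distances are also small beside counting error, with an interval of 0.11 to 0.69 for Phldb1 in TP5. Whether other genes share the pattern of a single member was not tested.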

How the data were processed

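For 4 libraries the authors deposited the reads counted on each gene, as raw counts that were not normalized. The submitters' processing notes name HISAT2 2.0.5, StringTie 1.3.3b, featureCounts 1.5.0-p3, edgeR 3.18.1 and GRCm38.p6, without their roles. The libraries were made with a directional NEBNext Ultra kit, which keeps strand. The strand and multi-mapping settings of the counting are not given in the sources used here, and both could shift counts between Hspa1a, Hspa1b and pseudogenes.

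Columns were matched to groups by name, with 0 unmapped. Counts were scaled by TMM (edgeR 4.0.16, R 4.3.3), with a prior count of 2, over the genes that reached 10 counts in any library. With 1 library per group no test was run, and a gene is called past 2-fold. Intervals are exact 95% conditional binomial for ratios of 2 counts. The procedure was tested on simulated data. Shared sequence was counted as 100-mers of GENCODE M21 transcripts, and promoters came from RefSeq. Where a symbol stood on several rows (100 symbols), the row of highest count was taken. Python 3.11.15, pandas 2.3.3, scipy 1.17.1 and matplotlib 3.10.9 were used.

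The members and lists were chosen with earlier results of these data known. Of each list, the 3 most abundant genes and those past 2-fold against control and 50 or more counts in either library were to be named, with the sorting markers, pseudogenes and the 5 nearest genes. Some of what this rule selects is not reported here. Bag2 was named after its values were seen. Alternatives were DESeq2 1.42.0 size factors, library size alone, the same relative to the median gene, no filter, at least 10 counts in every library, a prior count of 0.5, a 1.5-fold call, and Hspa1a and Hspa1b summed.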

Additional observations from a re-analysis of the deposited data

How the results depend on the processing

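No member was past 2-fold in 5 of the 6 comparisons, and 1 was in sFD17 against control. With library size alone this became 0 in sFD17 against control and 2 (Hspd1 and Hspe1) in FR17 against sFD17, and with Hspa1a and Hspa1b summed it became 0 in sFD17 against control. At 1.5-fold, 1 member was past it in TP5, 2 in sFD17 and 1 in FR17 against control, and 1 in FR17 against sFD17. Of the 60 log2 fold changes of single members, library size alone changed the sign of 13 and moved values by up to 0.46, DESeq2's size factors changed the sign of 2, and the absence of a filter of 5. Relative to the median gene, library size alone changed 2 signs. Signs were taken before rounding. Summing Hspa1a and Hspa1b moved 10 values, by up to 0.26, and changed 1 sign (Hspa1a in FR17 against TP5). At least 10 counts in every library and a prior count of 0.5 changed none. The depth of 370 counts or more per member leaves narrow counting intervals, and the variation between mice was not measured, since each library is a pool. No paired analysis was possible because each group has 1 library and the labels give no replicate numbers.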
